A study of Mus musculus with 8 samples.

Results

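Jmjd3 peaks outside H3K4me3 clusters are the 610 of 4398 Jmjd3 positions, 13.9% (12.9 to 14.9), whose 500 bp window shared no base with an H3K4me3 cluster of untreated macrophages or of macrophages after 4 h of stimulation. Jmjd3 (Kdm6b) is a histone demethylase whose substrate is H3K27me3. The other 3788 Jmjd3 peaks lay in or against a cluster of at least 1 time and are called inside peaks. The 610 were selected on the positions of Jmjd3 and H3K4me3 peaks, so the lack of H3K4me3 and the distance to a cluster are descriptions and were not tested. Brackets hold exact 95% binomial intervals for shares and 95% Newcombe intervals for differences. Both reflect counting error and nothing else, because peaks near each other are not independent.

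The cells were bone marrow-derived macrophages, phagocytes grown in culture from the marrow of female Fvb mice aged 6 to 8 weeks. They were untreated (0 h) or had received lipopolysaccharide, a bacterial cell wall component, and interferon gamma, a cytokine that activates macrophages. Chromatin immunoprecipitation and sequencing gave 1 list for Jmjd3 at 2 h, for RNA polymerase II (Pol II) at 0, 2 and 4 h, and for H3K4me3 and H3K27me3 at 0 and 4 h. Jmjd3 was mapped from 500000000 cells and each other point from 100000000, per the labels' protocols; how many animals were pooled is not given in the sources used here. Each of the 8 groups was 1 library, so no change with time had a replicate check. The Jmjd3 list has no untreated counterpart here, and the labelled cell type could not be checked against marker genes.

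As background, H3K4me3 marks promoters, and H3K27me3 is the Polycomb mark of silenced genes that Jmjd3 erases. Lipopolysaccharide induces Jmjd3 in macrophages. Sites away from promoters that carry little H3K4me3 include enhancers, which can recruit Pol II, and the bodies of transcribed genes, along which Pol II travels.

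Pol II was listed at 67.0% to 80.7% of all Jmjd3 peaks depending on the time, and at far fewer of the 610. At 0 h, 108 of the 610 (17.7%, 14.8 to 21.0) overlapped a Pol II peak, against 74.9% (73.5 to 76.3) of inside peaks and 67.0% of all Jmjd3 peaks. At 2 h, the time of the Jmjd3 map, it was 243 (39.8%, 35.9 to 43.8) against 87.3% (86.2 to 88.4) inside and 80.7% of all. At 4 h it was 233 (38.2%, 34.3 to 42.2) against 85.2% (84.0 to 86.3) inside and 78.6% of all. The share outside differed from the share inside by -57.2 percentage points (-60.3 to -53.7) in untreated cells. The difference was -47.5 points (-51.4 to -43.4) at 2 h. At 4 h it was -47.0 points (-50.9 to -42.9). All 3 intervals exclude 0, in each class of the Jmjd3 overlap count as well as pooled. The lists come from bulk chromatin, in which fewer cells with a bound protein and less protein per cell cannot be told apart.

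The Pol II peaks at the 610 were also lower than those at inside peaks. The overlap count that the authors give each peak, the number of tags piled up at its highest point, had medians of 15.5, 21 and 28 in the 0, 2 and 4 h lists for the Pol II peaks at the 610. At inside peaks the medians were 48, 126 and 102. The medians of the whole Pol II lists were 14, 17 and 19, so the Pol II peaks at the 610 stood above the middle of their lists and well under those at inside peaks. The tallest Pol II partner of the 610 reached 250, 366 and 362 in the same order. Overlap counts are not scaled to depth, and counts of different lists are set side by side here only as values.

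**Figure D1:**
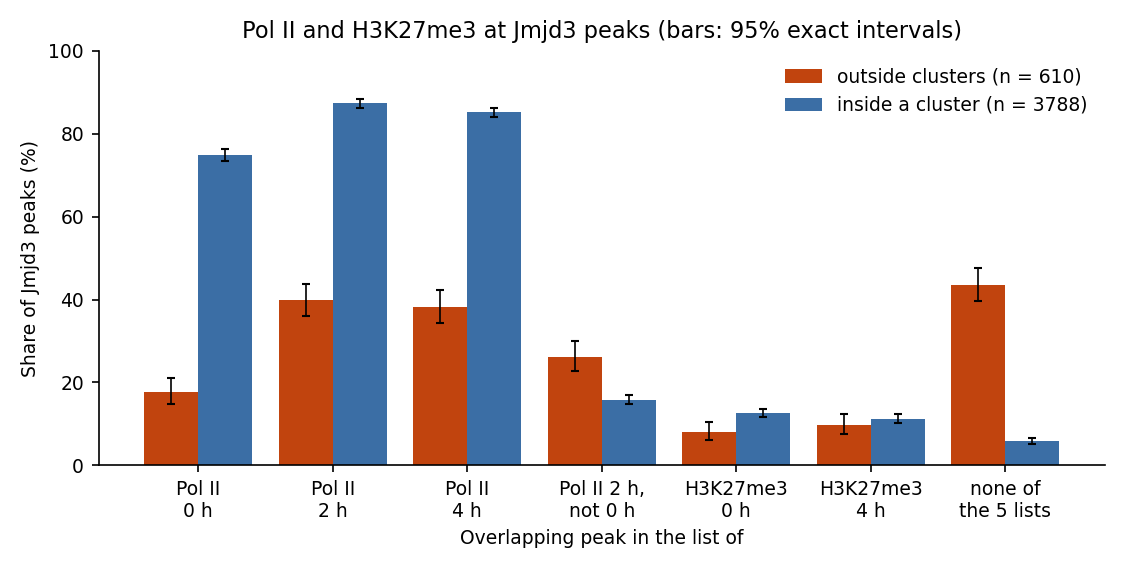
Share of Jmjd3 peaks (%) that overlapped a peak of each list, for the 610 outside H3K4me3 clusters and the 3788 inside, with exact 95% intervals. Pol II at 2 h was at 39.8% of the former and 87.3% of the latter, and 43.6% against 5.89% overlapped none of the 5 Pol II and H3K27me3 lists.

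Among the 610, Pol II listed after stimulation and not before was more frequent than Pol II listed at all 3 times. Pol II was present at 2 h and unlisted at 0 h at 160 of them (26.2%, 22.8 to 29.9), against 600 inside peaks (15.8%, 14.7 to 17.0) and 17.3% of all Jmjd3 peaks. The difference was 10.4 points (6.85 to 14.2). With Pol II and H3K27me3 peaks restricted to those above the median of their own list it was -0.170 points (-3.37 to 3.36). These are shares over all peaks of a group, and only a peak with no Pol II at 0 h could be newly listed. Pol II was listed at 0 h at 74.9% of inside peaks and 17.7% of the 610. Among peaks with none at 0 h, newly listed Pol II was less frequent outside clusters than inside. The reverse, a Pol II peak before stimulation without one at 2 h, was seen at 25 of the 610 (4.10%, 2.67 to 5.99), against 3.5% of all Jmjd3 peaks. Those 25 were 23.1% (15.6 to 32.2) of the 108 with Pol II at 0 h. Inside it was 129 of 2837 (4.55%, 3.81 to 5.38), a difference of 18.6 points (11.6 to 27.4). That difference was not adjusted for the Pol II overlap count at 0 h, whose median was 15.5 at the 610 and 48 inside. Loss by 2 h was not compared with Pol II outside clusters without Jmjd3, so it cannot be called particular to the 610. Among the 610, 107 overlapped Pol II at 2 and 4 h alone, 65 overlapped Pol II at all 3 times without H3K27me3, 37 overlapped Pol II at 2 h alone and 29 at 4 h alone. At inside peaks the order was different, since 61.9% (60.4 to 63.5) had Pol II at all 3 times without H3K27me3 and 9.90% (8.97 to 10.9) at 2 and 4 h alone.

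Of the 243 peaks with Pol II at 2 h, 160 (65.8%, 59.5 to 71.8) had none at 0 h, against 600 of 3308 inside peaks (18.1%, 16.8 to 19.5), a difference of 47.7 points (41.4 to 53.5). At 4 h it was 145 of 233 (62.2%, 55.7 to 68.5) against 16.6% (15.3 to 17.9) inside. The Pol II list of untreated cells stops early on 7 chromosomes. Without those chromosome ends, which held 14 of the 610, the shares at 2 h were 64.8% (58.4 to 70.9) and 15.8% (14.6 to 17.2).

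A high share of newly listed Pol II was common to Pol II outside H3K4me3 clusters, with or without Jmjd3. Of all 34798 Pol II peaks at 2 h that lay outside clusters, 63.3% had no partner at 0 h. The 249 that overlapped 1 of the 610 Jmjd3 peaks had a share of 65.5% (59.2 to 71.4), and the 34547 without any Jmjd3 peak 63.3% (62.8 to 63.8), a difference of 2.15 points (-3.97 to 7.80). At 4 h the shares were 62.6% (56.0 to 68.8) and 57.4% (56.9 to 57.9), a difference of 5.16 points (-1.20 to 11.1); the share over all 34983 peaks was 57.4%. Both intervals include 0. These shares include the chromosome ends where the 0 h list stops. Without the ends, 62.6% of 34120 peaks at 2 h and 56.3% of 34083 at 4 h had no partner, and the differences were 1.88 (-4.36 to 7.66) and 5.31 points (-1.16 to 11.4).

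Pol II peaks at Jmjd3 were taller than those without, with a median overlap count of 20 against 14 in the 2 h list and 28 against 16 in the 4 h list, and in both groups the tallest class had the lowest share with no partner at 0 h. Within classes of the Pol II overlap count the difference was larger in value in the upper classes; whether the classes differ from each other was not tested. At 2 h it was 2.31 points (-14.9 to 13.5) for counts of 10 to 11, 3.77 (-11.6 to 15.2) for 12 to 14, 13.3 (0.226 to 23.1) for 15 to 20 and 10.7 (1.86 to 19.2) for 21 to 366. Among the tallest peaks at 4 h, with counts of 24 to 373, 76 of 135 at Jmjd3 (56.3%, 47.5 to 64.8) and 39.2% (38.2 to 40.3) without Jmjd3 had none at 0 h, a difference of 17.1 points (8.57 to 25.2). Leaving out Jmjd3 peaks in groups of 3 or more neighbours, described below, the difference in the tallest class was 9.50 points (-0.0875 to 18.7) at 2 h and 13.5 (4.17 to 22.6) at 4 h. The interval at 2 h then includes 0. This comparison and its classes were chosen after values had been seen.

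**Figure D2:**
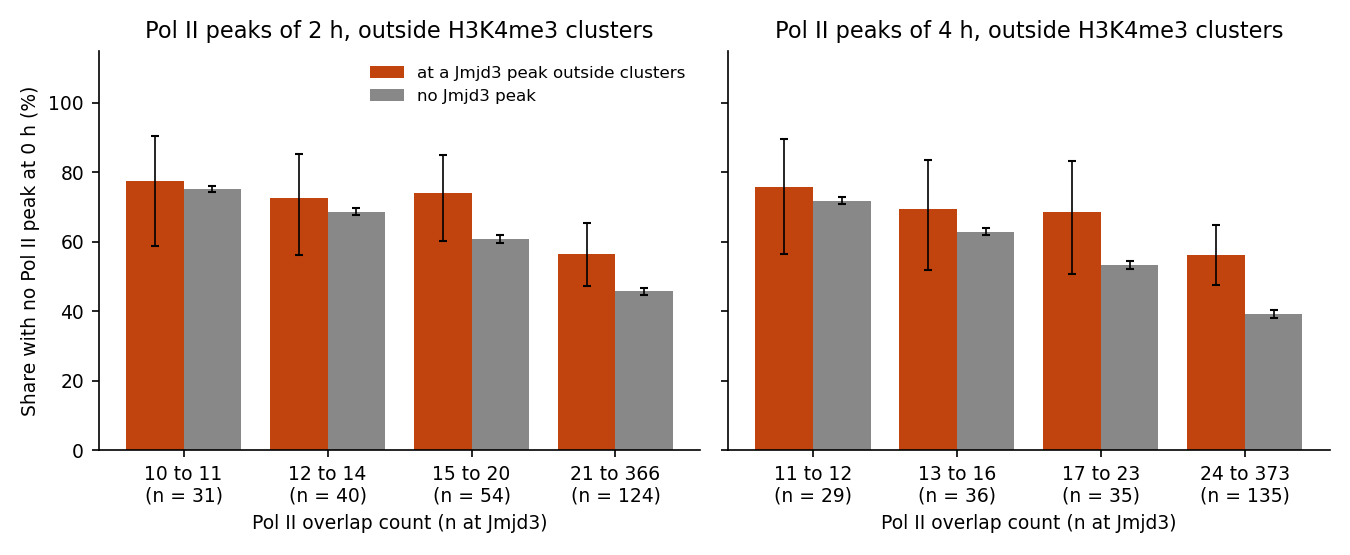
Share (%) of Pol II peaks outside H3K4me3 clusters with no Pol II peak at 0 h, by class of the Pol II overlap count, at 2 h and at 4 h, with exact 95% intervals. In the tallest class at 4 h the share was 56.3% at a Jmjd3 peak and 39.2% without Jmjd3; in the lowest class at 2 h the intervals overlap.

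H3K27me3, the mark that Jmjd3 removes, was listed at few Jmjd3 peaks, both among the 610 and inside clusters. Of the 610, 71 had the mark at either time, and Pol II of some time was also listed at 27 of these. At 0 h, 49 (8.03%, 6.00 to 10.5) overlapped an H3K27me3 peak, against 12.6% (11.6 to 13.7) of inside peaks and 12.0% of all Jmjd3 peaks, a difference of -4.56 points (-6.76 to -1.93). At 4 h it was 60 (9.84%, 7.59 to 12.5) against 11.2% (10.2 to 12.3) inside and 11.0% of all, a difference of -1.38 points (-3.75 to 1.41). Neither difference was stable across settings. Without the Jmjd3 peaks that overlapped all 3 Pol II and both H3K27me3 lists, 4 of the 610 and 207 inside, the difference was -0.114 points (-2.16 to 2.39) at 0 h and 3.15 points (0.936 to 5.83) at 4 h. All peaks left out had H3K27me3 at both times and most were inside, so a shift in this direction follows from the setting. Clusters above their list's median alone, a rule that counts peaks in low clusters as outside, turned the differences at 0 and 4 h to 9.61 (7.18 to 12.2) and 12.5 points (10.1 to 15.1).

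H3K27me3 without Pol II of any time was at 44 of the 610 (7.21%, 5.29 to 9.56) and at 1.69% (1.30 to 2.15) of inside peaks, a difference of 5.52 points (3.67 to 7.88). Both together were at 27 of the 610 (4.43%, 2.94 to 6.37) and at 12.4% (11.4 to 13.5) of inside peaks, a difference of -8.01 points (-9.76 to -5.82). Pol II of any time was at 49.2% (45.1 to 53.2) of the 610 and 92.4% (91.5 to 93.2) of inside peaks. The differences for H3K27me3 without Pol II and for both together were not adjusted for that. Among peaks without Pol II of any time, H3K27me3 was less frequent outside clusters than inside. The same direction held among peaks with Pol II of any time. Neither was tested. The H3K27me3 peaks at the 610 had a median overlap count of 13 at 0 h and 14 at 4 h, against medians of 12 and 13 in the whole lists and of 18 and 23 at inside peaks. They were thus close to the middle of their lists.

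H3K27me3 was listed at both times at 38 of the 610 (6.23%, 4.45 to 8.45) and at 9.69% (8.76 to 10.7) of inside peaks, a difference of -3.46 points (-5.39 to -1.08). It was listed at 0 h alone at 11 (1.80%, against 2.75% of all Jmjd3 peaks) and at 4 h alone at 22 (3.61%, against 1.82%). Of the 49 with the mark at 0 h, 22.4% (11.8 to 36.6) had none at 4 h, against 23.1% (19.4 to 27.1) of the 477 inside peaks with the mark, a difference of -0.612 points (-10.8 to 13.3). Of the 60 with the mark at 4 h, 36.7% (24.6 to 50.1) had none at 0 h, against 13.6% (10.5 to 17.3) of 425 inside, a difference of 23.0 points (11.4 to 36.0). Over all H3K27me3 peaks of 4 h outside clusters, 56.2% had none at 0 h. The share was 37.7% (25.6 to 51.0) for the 61 H3K27me3 peaks that overlapped the 610 and 56.2% (55.9 to 56.6) for those without Jmjd3, a difference of -18.5 points (-29.6 to -5.98). The former were taller, with a median overlap count of 14 against 12. By class of the H3K27me3 count the difference was -5.66 points (-28.1 to 8.86) at 10 to 11, -23.6 (-38.1 to -1.12) at 13 to 16 and -2.81 (-12.1 to 17.5) at 17 to 401, and count 12 held 2 of the 61 peaks. The interval excludes 0 in the class of 13 to 16 alone. For loss by 4 h, where 30.9% of H3K27me3 peaks outside clusters had no partner, the shares were 19.6% (9.82 to 33.1) of 51 and 30.9% (30.5 to 31.4), a difference of -11.3 points (-19.9 to 1.53) whose interval includes 0.

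No Pol II and no H3K27me3 peak overlapped 266 of the 610 (43.6%, 39.6 to 47.6), against 5.89% (5.16 to 6.68) of inside peaks and 11.1% of all Jmjd3 peaks. The difference was 37.7 points (33.8 to 41.7). These 266 peaks had Jmjd3 overlap counts of 9 to 16, and 64.7% (58.6 to 70.4) were at the lowest count of the list. Some lay near Pol II without overlapping it, as 36.5% (30.7 to 42.6) were within 5 kb of a Pol II peak of 2 h. How often any position lies that near Pol II was not computed. Over all 610, Pol II of 0, 2 and 4 h was within 5 kb of 38.7% (34.8 to 42.7), 62.6% (58.6 to 66.5) and 57.4% (53.3 to 61.3). These shares include the peaks that overlapped Pol II. For inside peaks these shares were 89.6%, 97.8% and 96.9%.

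By the Jmjd3 overlap count itself the 610 were the low end of the list. Their counts ran from 9 to 24 with a median of 9, and inside peaks ran from 9 to 96 with a median of 11. The lowest count in the list, 9, held 350 of the 610 (57.4%) and 28.4% of inside peaks. Counts of 14 or more were reached by 29 of the 610 (4.75%) and by 24.8% of inside peaks. Read the other way, peaks outside clusters made up 24.5% (22.3 to 26.9) of the 1426 Jmjd3 peaks at count 9, 16.1% (13.7 to 18.8) of the 850 at 10, 8.16% (6.64 to 9.89) of the 1152 at 11 to 13 and 2.99% (2.01 to 4.27) of the 970 at 14 to 96. Apart from 1 peak at 24, no peak outside clusters exceeded 16.

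**Figure D3:**
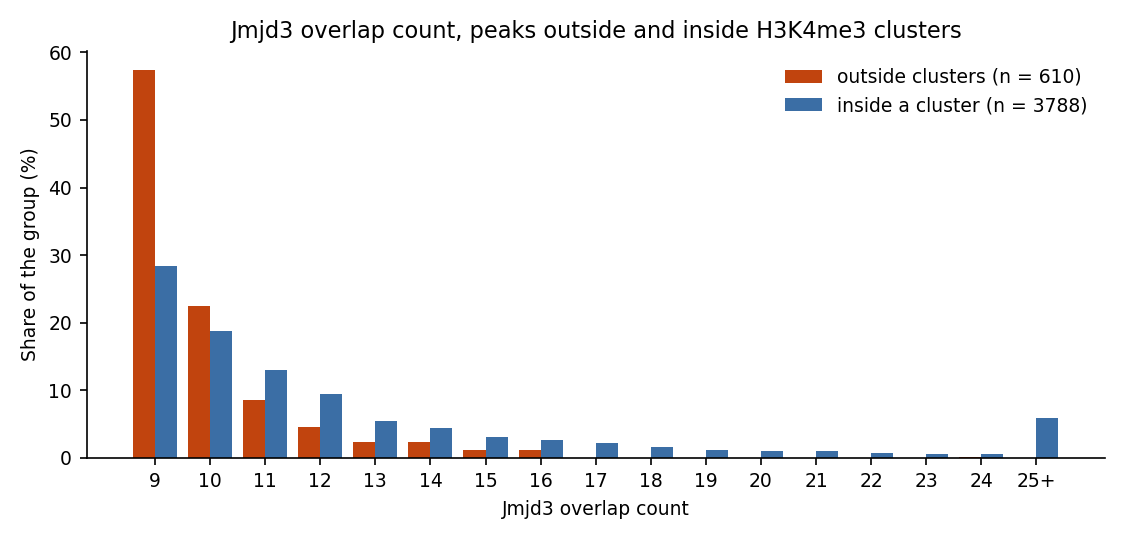
Share (%) of the 610 Jmjd3 peaks outside H3K4me3 clusters and of the 3788 inside at each Jmjd3 overlap count, with counts of 25 or more in the last pair of bars. The lowest count, 9, held 57.4% of the peaks outside and 28.4% of those inside.

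Pol II at the 610 varied with the Jmjd3 overlap count. Pol II at 2 h overlapped 34.3% (29.3 to 39.5) of those at count 9, 43.8% (35.3 to 52.5) at 10, 54.3% (43.7 to 64.6) at 11 to 13 and 41.4% (23.5 to 61.1) of the 29 at 14 or more. Newly listed Pol II at 2 h went from 19.4% (15.4 to 24.0) at count 9 to 32.8% (25.1 to 41.4) at 10 and 41.5% (31.4 to 52.1) at 11 to 13. At 14 or more it was lower in value, at 8 of the 29 (27.6%, 12.7 to 47.2). Inside clusters the shares of the 4 classes were 14.1%, 15.3%, 15.9% and 18.2%. Most inside peaks of each class already had Pol II at 0 h and could not be newly listed. Among peaks with none at 0 h, newly listed Pol II was less frequent outside clusters than inside in every class. The difference over all peaks, outside minus inside, was 5.30 points (0.903 to 10.2) at count 9. It was 17.6 (9.73 to 26.2) at 10 and 25.6 (15.9 to 35.9) at 11 to 13. In the tallest class, with 29 peaks outside, it was 9.41 points (-3.73 to 27.7), and the interval includes 0. The share with no Pol II and no H3K27me3 was higher outside clusters in every class, by 29.0 to 40.8 points.

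The distance from the 610 to the nearest cluster edge had a median of 14.3 kb, with quartiles of 4.61 and 38.2 kb. It was 17.2 kb to clusters of 0 h and 19.5 kb to those of 4 h. A cluster of 0 h was the nearer for 312 and one of 4 h for 298. Under 1 kb lay 41 of the 610 (6.72%), from 1 to 5 kb 123 (20.2%), from 5 to 20 kb 188 (30.8%), from 20 to 100 kb 192 (31.5%) and beyond 100 kb 66 (10.8%). At the limit of the rule, the 3 nearest peaks outside were 258, 297 and 303 bp from a cluster, with Jmjd3 overlap counts of 9, 9 and 10. The 3 inside peaks nearest to the limit were 245, 237 and 222 bp away, with counts of 13, 9 and 9. A further 94 Jmjd3 peaks were in a cluster of 0 h only and 126 in a cluster of 4 h only, and these count as inside.

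Pol II was less often at peaks far from a cluster. At 2 h, Pol II overlapped 56.1% (39.7 to 71.5) under 1 kb, 48.8% (39.7 to 58.0) from 1 to 5 kb, 45.2% (38.0 to 52.6) from 5 to 20 kb, 34.4% (27.7 to 41.6) from 20 to 100 kb and 13.6% (6.43 to 24.3) beyond. Within 5 kb, 83 of 164 (50.6%, 42.7 to 58.5) had Pol II at 2 h, against 160 of 446 (35.9%, 31.4 to 40.5) farther out, a difference of 14.7 points (5.89 to 23.4). At 4 h the difference was 14.5 points (5.69 to 23.2), and at 0 h 5.81 points (-0.949 to 13.4), an interval that includes 0. With the split at 20 kb the differences for 0, 2 and 4 h were 8.52 (2.43 to 14.3), 18.7 (10.9 to 26.0) and 25.9 points (18.3 to 32.9). With the split at 2 kb they were 6.00 (-2.80 to 17.2), 17.7 (5.66 to 29.2) and 10.4 points (-1.37 to 22.3), and the intervals at 0 and 4 h include 0.

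For H3K27me3 the difference between peaks within and beyond 5 kb was -2.65 points (-6.71 to 2.63) at 0 h and -1.78 (-6.41 to 4.06) at 4 h. At 0 h the interval excludes 0 with 100 bp per side, at -4.30 points (-7.15 to -0.532), and with an overlap of 50% of the shorter feature, at -4.33 (-7.18 to -0.610). Beyond 100 kb, 11 of 66 (16.7%, 8.62 to 27.9) overlapped H3K27me3 at 4 h. Pol II of that time overlapped 8 (12.1%, 5.38 to 22.5), and 45 (68.2%, 55.6 to 79.1) overlapped neither mark at any time. The median Jmjd3 overlap count was 10 under 1 kb and 9 in each of the 4 farther classes.

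**Figure D4:**
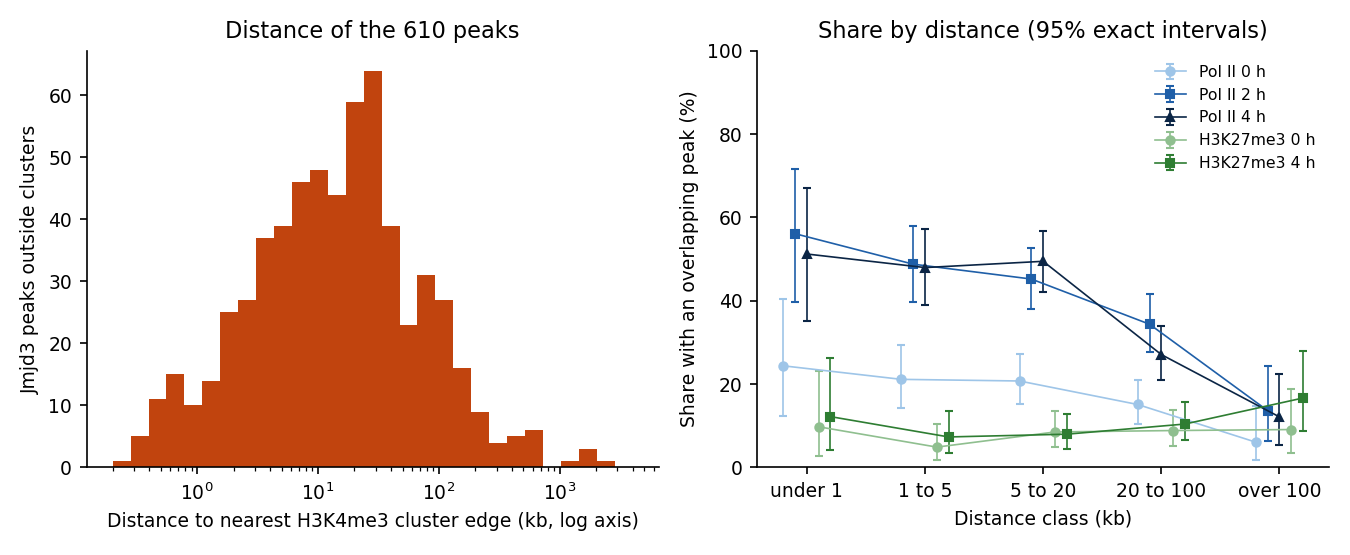
Left, number of the 610 Jmjd3 peaks by distance to the nearest H3K4me3 cluster edge (kb, log axis). Right, share (%) with an overlapping Pol II or H3K27me3 peak by distance class, with exact 95% intervals; Pol II at 2 h went from 56.1% under 1 kb to 13.6% beyond 100 kb.

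The 495 clusters of 0 h that were nearest to 1 of the 610 had a median overlap count of 50, against 78 for all 21418 clusters of that time. At 4 h the 488 nearest had a median of 76.5, against 97 for all 19631. Distance classes follow the nearest cluster of either time, so the nearest cluster of 1 list can lie farther away. The median at 4 h was not below that of all clusters in every class. It was 105 for the 167 clusters of 4 h nearest to peaks in the class of 5 to 20 kb. A Jmjd3 peak lay in 29.7% (25.7 to 33.9) of the 495 and in 34.4% (30.2 to 38.8) of the 488, against 13.6% and 14.7% of all clusters. For the 40 clusters of untreated cells nearest to peaks in the class under 1 kb, the median was 21.5 and 20 held Jmjd3. Of these 40, 26 (65.0%, 48.3 to 79.4) also appeared in the 4 h list, against 86.9% of all clusters of 0 h. Among the 610, 166 (27.2%, 23.7 to 30.9) were within 20 kb of a Jmjd3 peak inside a cluster and 53 within 5 kb.

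The tallest Jmjd3 peak outside clusters was at position 121486308 on chromosome 3 (mm8, as all positions here), with an overlap count of 24. It lay 53.2 kb from the nearest cluster and overlapped Pol II peaks of count 15 at 2 h and 15 at 4 h. The nearest Pol II of 0 h was 53.8 kb away and the nearest H3K27me3 10.6 kb. It had no neighbour in height, since the next 7 peaks were all at 16.

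At count 16, position 27028372 on chromosome 12 overlapped Pol II of count 10 at 0 h, 366 at 2 h and 301 at 4 h, 5.90 kb from a cluster. Position 111903470 on the same chromosome had Pol II counts of 35, 326 and 170 at 0, 2 and 4 h, 4.74 kb from a cluster. Of all 15 peaks with a count of 15 or more, these 2 had Pol II at all 3 times.

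Position 86537174 on chromosome 6 had Pol II counts of 26 at 2 h and 29 at 4 h, 7.31 kb from a cluster. Position 182129906 on chromosome 1 had 18 and 20, 12.7 kb from a cluster. Both had their nearest Pol II of 0 h over 3 kb away. Position 20403509 on chromosome 8 had Pol II of 16 at 0 h and 18 at 4 h and none overlapping at 2 h, when the nearest was 1.052 kb away; a cluster of 0 h was 0.906 kb away. Positions 5774917 on chromosome 13 and 57768473 on chromosome 19 overlapped none of the lists, 25.6 and 92.8 kb from a cluster.

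At count 15, position 144406091 on chromosome 2 overlapped Pol II of 32 at 2 h and 38 at 4 h. It was 113 kb from any cluster and 114.6 kb from Pol II of 0 h. Position 70431925 on chromosome 12 had Pol II counts of 28 and 41 at 2 and 4 h and its nearest Pol II of 0 h 3.33 kb away. Equal Jmjd3 counts were ordered by the Pol II count at 2 h, so which peaks at 15 are named follows Pol II, and 5 more at that count are left out of the 10 tallest. Over all 15 peaks at 15 or more, 6 had Pol II at 2 and 4 h and none at 0 h, 5 overlapped no list and none overlapped H3K27me3. The sixth with newly listed Pol II was position 127211656 on chromosome 6, at 15, with Pol II counts of 25 and 15 at 2 and 4 h. Of the 6 peaks at 15 or more that were over 20 kb from a cluster, position 20346406 on chromosome 8, at count 15, overlapped no list, with Pol II of 2 h 0.519 kb and H3K27me3 of 4 h 0.521 kb away.

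The tallest of the 610 with H3K27me3 at 0 h had Jmjd3 counts of 13 or 14. Position 10728793 on chromosome 16, at 14, had H3K27me3 of count 12 at 0 h and none at 4 h, where the nearest peak was 1.54 kb away. Its Pol II counts were 30 at 2 h and 37 at 4 h, with none at 0 h. Position 20282746 on chromosome 4, at 14, overlapped all 5 lists, with H3K27me3 of 19 and 38 at 0 and 4 h and Pol II of 14, 18 and 14 at 0, 2 and 4 h. It was 346 kb from a cluster, and all 5 partner positions were within 30 bp of it.

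Position 46551373 on chromosome 14, at 14, had H3K27me3 of 9 at 0 h and Pol II of 13 at 2 h, whose positions were 2 and 1 bp from the Jmjd3 position. Position 3036049 on chromosome 17, at 14, had H3K27me3 of 10 at 0 h alone. Position 116065304 on chromosome 12, at 13, had H3K27me3 of 13 and 17 at 0 and 4 h and Pol II of 15 at 2 h. Position 4042937 on chromosome 5, tied at 13, had H3K27me3 of 11 at 0 h and none at 4 h. Of these 6, 2 had a listed H3K27me3 peak at 4 h.

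The peak farthest from a cluster was position 116386029 on chromosome 1, at count 9 and 2693 kb from the nearest. It overlapped H3K27me3 of 10 at 0 h and 14 at 4 h, and the nearest Pol II of any time was over 2693 kb away. The next 3 were positions 21601251 on chromosome 15, 80235754 on chromosome 14 and 102010350 on chromosome 1, with Jmjd3 counts of 11, 9 and 9, at 1798, 1729 and 1588 kb. The chromosome 1 position overlapped H3K27me3 of 15 and 13 at 0 and 4 h, and its only Pol II peak, of count 14, was at 4 h. The fifth, position 46184817 on chromosome 2, had a count of 9 and was 1121 kb from a cluster and 2.465 kb from Pol II of 2 h. Of the 5, H3K27me3 was at 2 and Pol II of 2 h at none.

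Ordered by Pol II in place of Jmjd3, an order chosen after values had been seen, the 10 of the 610 with the highest Pol II count at 2 h included 6 from a single stretch of chromosome 12, described next. Position 53623949 on chromosome 11, at a Jmjd3 count of 12, had Pol II counts of 22, 337 and 312 at 0, 2 and 4 h. Position 93398527 on chromosome 5, at 10, had no Pol II at 0 h, 305 at 2 h and 36 at 4 h. Among these 10, the chromosome 5 position was the only one with a Pol II count under 170 at 4 h.

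Some of the 610 lay in groups. With gaps of up to 20 kb joined, 164 of the 610 (26.9%, 23.4 to 30.6) fell into 65 groups of 2 or more, and 70 into 18 groups of 3 or more. Without those 70 the shares changed little: Pol II at 2 h was at 38.0% (33.9 to 42.2), newly listed Pol II at 24.4% (20.9 to 28.3), H3K27me3 at 4 h at 10.0% (7.60 to 12.8) and no listed Pol II or H3K27me3 at 45.0% (40.7 to 49.3) of the other 540.

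The largest group had 9 Jmjd3 peaks outside clusters between positions 27028372 and 27066749 on chromosome 12, a span of 38.4 kb. Their counts were 9 to 16. Pol II overlapped 1 of the 9 at 0 h, 7 at 2 h and 7 at 4 h, and no H3K27me3 peak lay within 5 kb of the span at either time. The 7 Pol II partners at 2 h had counts of 366, 329, 333, 322, 304, 355 and 229, and at 4 h those at the same Jmjd3 peaks had 301, 174, 179, 196, 175, 256 and 135. All 7 were lower at 4 h than at 2 h, in libraries of unknown relative depth.

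Within 5 kb of this span, Pol II peaks numbered 3 at 0 h, with counts of 9, 10 and 26, and 28 each at 2 and 4 h, with medians of 288.5 and 143.5. H3K4me3 clusters numbered 2 at each time. The first had a count of 58 over 2.67 kb at 0 h and 187 over 9.21 kb at 4 h; the second had 166 over 3.40 kb and 249 over 6.51 kb. A further 10 Jmjd3 peaks there counted as inside clusters, 1 of them by its window alone, and the tallest had counts of 45 and 47. By the 4 h clusters, 5 of the 9 lay before the first, 1 between them and 3 after the second.

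**Figure D5:**
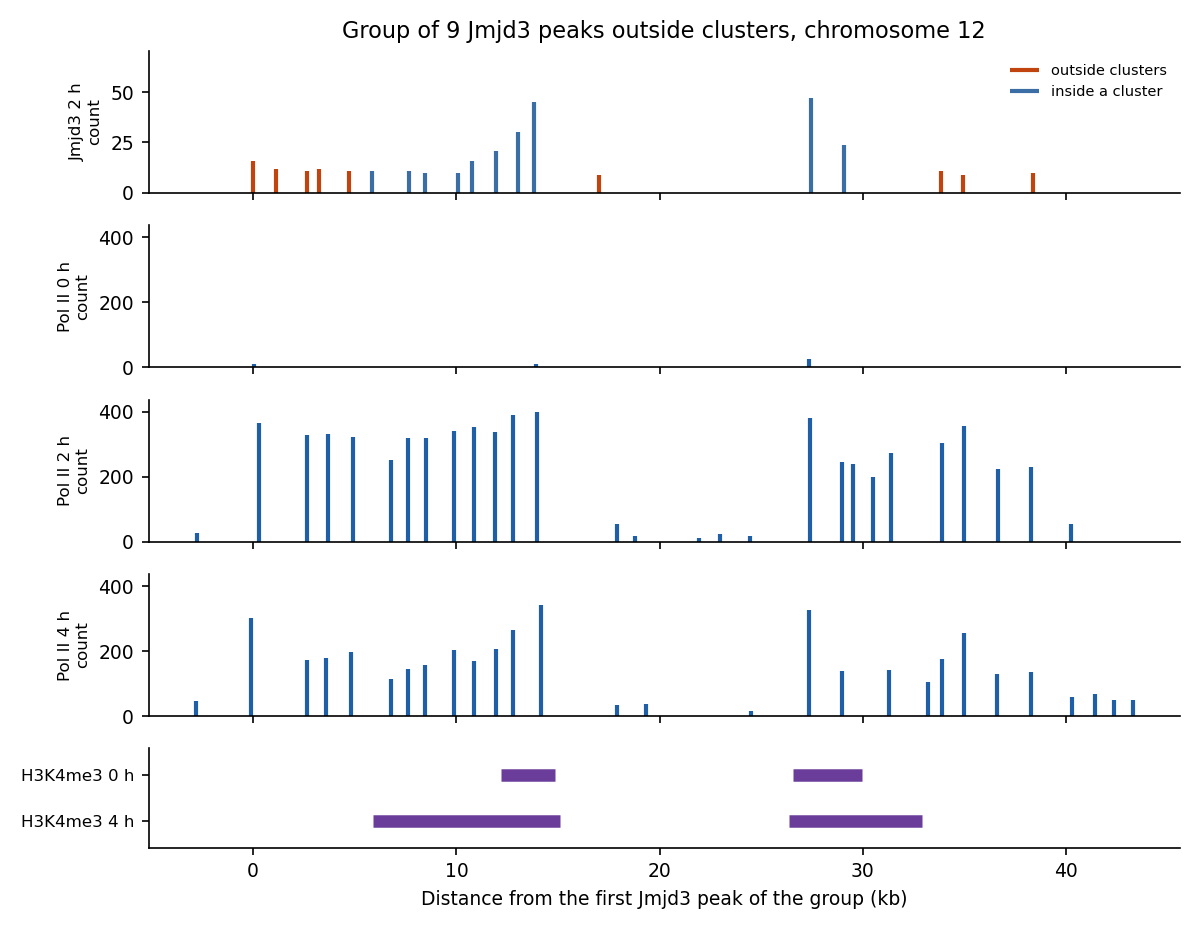
Overlap counts of Jmjd3 at 2 h and of Pol II at 0, 2 and 4 h, with the extent of H3K4me3 clusters at 0 and 4 h, along the group of 9 on chromosome 12 (x axis in kb from its first Jmjd3 peak). Jmjd3 peaks outside clusters reach 16 and those inside 47, and Pol II peaks go from 3 at 0 h to 28 at 2 h.

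A group of 6 spanned 12.2 kb from position 83347647 to 83359869 on chromosome 11, with Jmjd3 counts of 9 to 13. Pol II overlapped none of the 6 at 0 h, 4 at 2 h with counts of 15, 15, 27 and 16, and 3 at 4 h with counts of 27, 26 and 20. The nearest Pol II of 0 h was 17.0 to 23.2 kb away, and clusters were 0.433 to 6.76 kb away. The Pol II counts here were below those of the group of 9.

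The other group of 6, from position 116052480 to 116086310 on chromosome 12, was of another kind. H3K27me3 overlapped 2 of its 6 at 0 h, with counts of 11 and 13, and 3 at 4 h, with counts of 14, 17 and 10. Pol II overlapped none at 0 h, 2 at 2 h with counts of 13 and 15, and 1 at 4 h with 15. The nearest cluster was 60.9 kb or more away, and the nearest Pol II of 0 h 85.3 kb or more. Over the 18 groups of 3 or more, Pol II of 2 h was at 0 to 7 peaks of a group and H3K27me3 of 4 h at 0 to 3.

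By chromosome, peaks outside clusters made up from 8.47% (2.81 to 18.7) of Jmjd3 peaks on the X chromosome to 22.8% (17.0 to 29.4) on chromosome 16, where 43 of 189 lay outside, and 34 of 169 (20.1%) on chromosome 12. The 56 on chromosome 11 were the most on any chromosome and 10.9% (8.35 to 13.9) of its 513 Jmjd3 peaks.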

How the data were processed

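ChIP-seq was done on macrophages in 8 libraries, 1 per antibody and time, grouped by their labels. The authors deposited 1 peak list per library. Its only value is the overlap count, a signal that per the file headers is the overlap of tags at a position or, for H3K4me3, the maximum in a cluster with start and end; no scaling is stated. The build is mm8 according to the submitters' processing notes; aligner, caller, cutoff and control library were not stated in the sources used here. The labels state over 10000000 mapped tags per library. Exact depth is unknown, so counts are ranked only within a list, and a peak missing from a list may lie under its lowest count, 9 to 11, which depth can shift.

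Positions received 250 bp on each side, and sharing 1 bp counted as overlap. Where several peaks overlapped, the tallest gave the count. Distances run to the listed cluster edge. Shares have exact Clopper-Pearson intervals and differences Newcombe intervals, at 95%. Height classes were bounded by quartiles, equal counts kept together. Pol II at 0 h stops over 1 Mb before its other lists on 7 chromosomes. Members and named regions (the 10 tallest, and the 5 tallest over 20 kb from a cluster, with new Pol II at 2 h and with H3K27me3 at 0 h, the 5 farthest, and 3 on each side of the limit) were chosen with earlier results of these data known, equal counts ordered by the Pol II count at 2 h; groups within 20 kb and Pol II outside clusters were added after seeing values. No gene names or sequences are given, because the gene table at hand is on another build. Overlaps were tested on simulated data (700 of 700 planted overlaps recovered among 3000 features), and the 7 lists gave counts identical to bedtools 2.31.1. Tools were statsmodels 0.14.6, scipy 1.17.1, pandas 2.3.3, numpy 2.4.6 and matplotlib 3.10.9 under Python 3.11.15. Alternatives varied the window, overlap, cluster lists, peak height, distance split, autosomes and chromosome ends; 1 peak per locus and leaving out positions within 10 bp of H3K27me3 were added after seeing values, as was leaving chromosome ends out of the Pol II comparison outside clusters.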

Additional observations from a re-analysis of the deposited data

How the results depend on the processing

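No paired analysis was possible because each group was 1 library. Over 18 alternatives, the differences between peaks outside and inside clusters kept their direction, with intervals excluding 0, for Pol II at 0 h (-64.3 to -44.6 points), 2 h (-59.2 to -32.1) and 4 h (-55.8 to -34.0) and for peaks with no Pol II and no H3K27me3 (22.9 to 53.5). For Pol II listed at 2 h and not 0 h, as a share of all peaks, this held in 16 of 18. With Pol II and H3K27me3 peaks above their median the difference was -0.170 points. There, among Jmjd3 peaks with such Pol II at 2 h, the share with none above the median at 0 h was still 54.0 points (46.5 to 60.1) higher outside. At Jmjd3 counts of 14 to 96 the difference over all peaks was 9.41 points, with an interval that includes 0. The cause was not tested for any change given here.

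H3K27me3, outside minus inside, was the least stable. Leaving out peaks in all 5 lists removes peaks with the mark, most of them inside, so its shift follows from the setting. At 0 h the difference was -3.50 points above the lowest Jmjd3 count, -0.114 without peaks in all 5 lists, 9.61 with clusters above their median, and -2.36, 0.624, 2.65 and -9.80 at Jmjd3 counts of 9, 10, 11 to 13 and 14 to 96. At 4 h it was -3.08 with 500 bp per side, -3.11 with H3K27me3 peaks above their median, 12.5 with clusters above their median, 3.15 without peaks in all 5 lists, 0.00228 with 1 peak per locus, and 1.14, 5.40, 3.10 and -14.8 at counts of 9, 10, 11 to 13 and 14 to 96.

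Between peaks within and beyond 5 kb of a cluster, the Pol II difference at 0 h gained an interval excluding 0 with 500 bp per side (8.42), Pol II peaks above their median (5.95), clusters of 4 h alone (7.13), 1 peak per locus (7.45) and the split at 20 kb (8.52). At 2 h it was 7.98 with an overlap of 50% of the shorter feature, and at 4 h 9.95 above the lowest Jmjd3 count and 10.4 with the split at 2 kb; these intervals include 0. For H3K27me3 at 0 h it was -4.30 with 100 bp per side and -4.33 with the 50% overlap, with intervals excluding 0, and 0.255 with clusters of 4 h alone and 0.0857 with the split at 2 kb. At 4 h it was 0.716 with H3K27me3 peaks above their median, 1.18 with clusters of 4 h alone and 1.11 with the split at 2 kb.

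The share of Jmjd3 peaks outside clusters was 8.75% (260 peaks) above the lowest Jmjd3 count, 16.7% with clusters of 0 h alone, 16.01% with those of 4 h alone, 25.6% (1125 peaks) with clusters above their median, 12.7% with clusters extended by 1 kb and 15.7% with 1 peak per locus. For Pol II peaks outside clusters, the difference at Jmjd3 was 13.3 at counts of 15 to 20 and 10.7 at 21 to 366. Few peaks stand behind the H3K27me3 comparisons, and absence from a list is not absence of signal.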

Other observations

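Some Jmjd3 positions nearly coincided with H3K27me3 positions, although the median offset between a Jmjd3 peak outside clusters and its H3K27me3 partner was 92 bp at 0 h and 69 bp at 4 h. Of the 71 Jmjd3 peaks outside clusters with H3K27me3, 17 (23.9%, 14.6 to 35.5) had a position of that mark within 10 bp, against 96 of 535 (17.9%, 14.8 to 21.5) inside. The 113 peaks outside clusters with Pol II at 2 and 4 h and none at 0 h had median Pol II counts of 25 and 27. The 71 with Pol II at all 3 times had medians of 17, 34 and 40.

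A group of 3 between positions 20343895 and 20348784 on chromosome 8, 31.4 kb or more from a cluster, had Jmjd3 counts of up to 15, H3K27me3 at 2 of the 3 at 0 h and at 1 at 4 h, and Pol II at 1 at 2 h. It was chosen after its values had been seen.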
